A study of Mus musculus with 6 samples.

Results

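The Plagl1 imprinted locus was taken as the CpGs of mouse chromosome 10 between positions 13055000 and 13135000 (mm10) with at least 10 reads, summed over 2 libraries, in each of 3 cell types. Of the 1106981 CpGs that met this read minimum in the whole genome, 74 lay in the locus and are its members. A further 6 CpGs of the locus had reads but fell short of the minimum in at least 1 cell type. The locus and, within it, a window of 366 bp at the imprinted promoter were chosen from methylation levels measured in these same libraries, in which the window differed between the cell types. Differences between cell types in the window, with the calls at its single CpGs, are therefore given as a description, and no test of the window as a whole was made. The window held 38 members, and the other 36 members lay outside it.

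Reduced representation bisulfite sequencing (RRBS) was applied to cells of 3 kinds, with 2 libraries each. Both iPSC types came from OG2-MEFs, which are mouse embryonic fibroblasts, C-iPSCs by cocktails of small molecules and 4F-iPSCs by retroviruses carrying Oct4, Sox2, Klf4, and c-Myc. Both were at passages 5 to 10, and the mESCs, of the E14 line, were at passages 20 to 30. All cells were male and kept in ESC medium with LIF and 2i according to the labels. These also describe feeder layers of MEFs that were removed before collection, whereas the methods of the study describe culture on gelatin. How much feeder DNA the libraries held was not measured. The labels do not say whether replicates were separate cultures or clones, so the spread between them may be technical. Permutation tests rest on that spread, whereas the p-values of Fisher's exact test cover only counting error.

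Plagl1 encodes a zinc finger transcription factor that can restrain cell division. In most tissues the gene is transcribed from the paternal chromosome, while the promoter on the maternal chromosome carries DNA methylation that is set in the oocyte and kept in the embryo after fertilization. RRBS reads do not say which parental chromosome they come from, so a promoter methylated on the maternal chromosome and free of methylation on the paternal one gives an intermediate methylation level.

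The GENCODE annotation placed Plagl1 on the plus strand of chromosome 10 from 13060504 to 13131694, with 25 transcripts. Of these, 22 began near the window, at 8 different starts, and 13 shared the start at 13090832, from which distances are counted here. The most upstream start lay 30328 bp before it, and 25 members lay 418 to 717 bp downstream of that start, in an intron of Plagl1, from -29910 to -29611 bp (the upstream group). The window ran from 13090824 to 13091189, over exon 1 and the beginning of intron 1. RefSeq also lists the noncoding RNA Hymai, which begins inside the window at 13090845 on the same strand. Between the upstream group and the window, and in the gene body beyond the window, 6 members were scattered, counting 1 CpG before the upstream start. The last 5 members lay at the edge of the window, from -198 to -19 bp.

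The sequences of the promoter upstream of the main start (chr10:13090582-13090787, plus strand), of the intron 1 part of the window (chr10:13091025-13091189, plus strand), and of the upstream group (chr10:13061021-13061222, plus strand) are shown because most members outside exon 1 lie in them. They were taken from RefSeq GRCm38.p6, read 5′ to 3′, and have each CpG in capitals.
Plagl1_promoter: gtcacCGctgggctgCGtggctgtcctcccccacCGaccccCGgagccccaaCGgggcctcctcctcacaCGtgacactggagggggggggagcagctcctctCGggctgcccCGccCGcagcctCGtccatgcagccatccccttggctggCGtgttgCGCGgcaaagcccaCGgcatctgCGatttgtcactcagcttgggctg
Plagl1_intron_1: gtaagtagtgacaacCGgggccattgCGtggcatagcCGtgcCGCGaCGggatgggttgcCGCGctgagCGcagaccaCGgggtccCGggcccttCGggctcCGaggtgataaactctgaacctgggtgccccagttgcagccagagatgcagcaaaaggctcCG
Plagl1_upstream_group: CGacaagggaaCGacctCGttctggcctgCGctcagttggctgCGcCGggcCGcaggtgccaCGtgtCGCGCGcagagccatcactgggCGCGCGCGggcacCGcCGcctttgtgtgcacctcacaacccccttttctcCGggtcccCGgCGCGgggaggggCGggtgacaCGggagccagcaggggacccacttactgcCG

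The 206 bases of the promoter sequence held 15 CpGs, of which only 2 were members. MspI, the enzyme used to cut DNA for RRBS, cuts at CCGG, and CpGs far from such a site are not read. The 165 bases of intron 1 held 14 CpGs with 13 members. In the 202 bases shown of the upstream group, all 24 CpGs were members, but this stretch leaves out the first member, at -29910 bp. From its first to its last member, the group spanned 301 bases with 32 CpGs, of which 25 were members. CpG-dense sequence was therefore sampled both inside and outside the imprinted window.

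In mESCs, the mean methylation level over the 38 CpGs of the window was 43.2% in replicate 1 and 40.7% in replicate 2. In C-iPSCs, it was 5.10% in replicate 1 and 9.79% in replicate 2. In 4F-iPSCs, it was 52.0% in replicate 1 and 58.6% in replicate 2. The 4F-iPSC libraries were the highest, the mESC libraries lay between, the C-iPSC libraries were the lowest, and no library of one cell type overlapped with those of another. As cell type means, the levels were 55.3% ± 4.73 in 4F-iPSCs, 41.9% ± 1.77 in mESCs, and 7.45% ± 3.32 in C-iPSCs (SD, n = 2 libraries each). The C-iPSCs minus the mESCs gave -34.5 percentage points, and the 4F-iPSCs minus the mESCs gave 13.4 percentage points. Both comparisons share the mESC libraries. The 4F-iPSCs were 47.8 percentage points above the C-iPSCs.

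**Figure D1:**
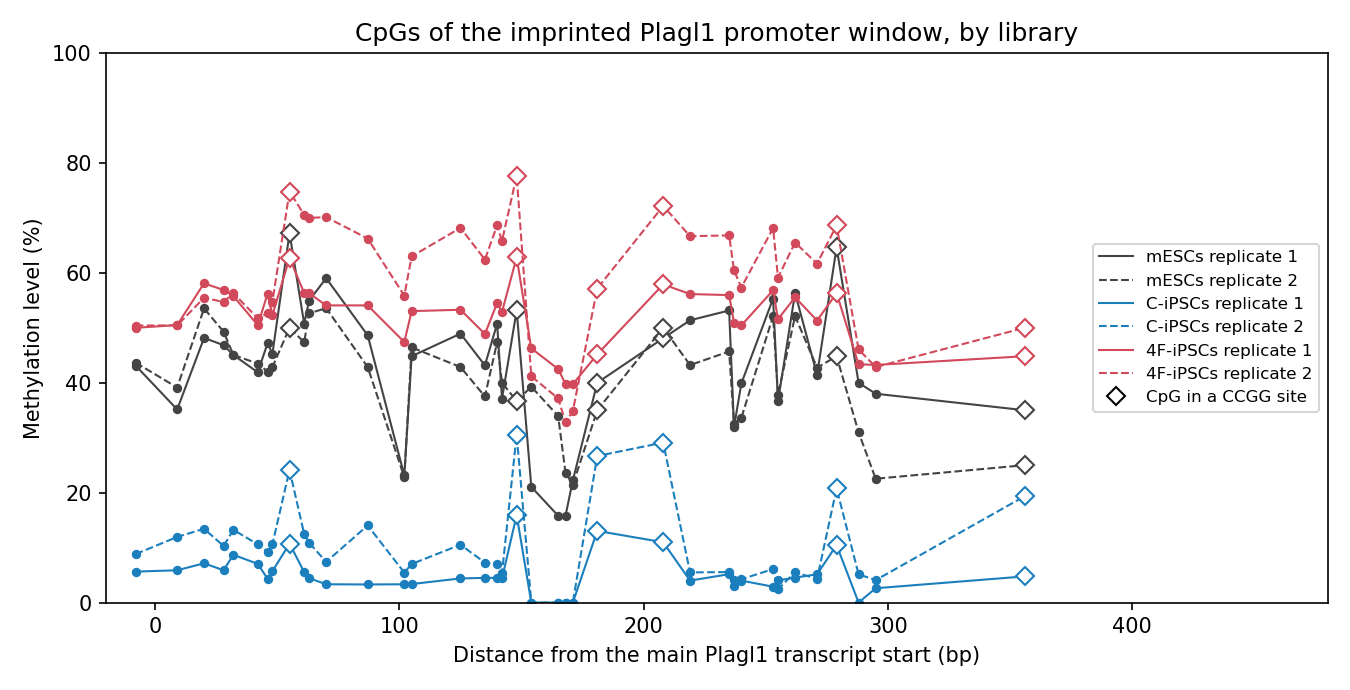
Methylation level (%) of each CpG of the imprinted Plagl1 promoter window against its distance (bp) from the main transcript start, with 1 line for each of the 6 libraries and open diamonds for CpGs in CCGG sites. At all 38 CpGs, both C-iPSC libraries lie below both mESC libraries.

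The order of the cell types held at single CpGs as well as in the mean. Both C-iPSC libraries lay below both mESC libraries at 38 of 38 CpGs, and both 4F-iPSC libraries lay above both C-iPSC libraries at 38 of 38. Both 4F-iPSC libraries lay above both mESC libraries at 34 of 38 CpGs. With a level under 30% called low and a level of 80% or more called high, all 38 CpGs were low in C-iPSCs and all 38 were intermediate in 4F-iPSCs. In mESCs, 34 were intermediate and 4 were low, and no CpG of the window was high in any cell type.

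Summing the read counts of the window over its CpGs gave the same order. A read is counted here once for each CpG that it covers. In mESCs, 46.0% of 4163 reads were methylated in replicate 1 (95% Wilson interval 44.4 to 47.5%) and 41.5% of 2727 reads in replicate 2 (39.6 to 43.3%). In C-iPSCs, 4.74% of 3907 reads were methylated in replicate 1 (4.11 to 5.45%) and 8.37% of 3239 reads in replicate 2 (7.46 to 9.37%). In 4F-iPSCs, 52.8% of 5140 reads were methylated in replicate 1 (51.4 to 54.1%) and 61.0% of 5375 reads in replicate 2 (59.7 to 62.3%). These intervals, and those given for single CpGs, cover only counting error. PCR copies were not marked with molecular identifiers, so reads are not independent molecules, and reads on neighboring CpGs can come from the same molecule. The intervals for the whole window are therefore too narrow, and nothing is read from whether they overlap.

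A CpG was called different between cell types when its levels on summed reads were more than 33.3 percentage points apart and Fisher's exact test (two-sided) gave an unadjusted p below 0.05. Fisher's exact test on summed reads does not use the spread between replicates, so a quasi-binomial model over the libraries, with p adjusted by the Benjamini-Hochberg method and the same minimum difference, was run beside it. For C-iPSCs against mESCs, its fitted prior gave every CpG the same dispersion, so there the spread between replicates entered only as an average over CpGs, and for the other contrasts this was nearly so. Between C-iPSCs and mESCs, 25 of 38 CpGs of the window (65.8%) were called lower in C-iPSCs by Fisher's exact test, where 0.0374% of all compared CpGs were called lower and 2.9% higher. The quasi-binomial model also called 25 of 38 lower, where it called 0.0113% of all CpGs lower and 1.49% higher. Nothing is read from these shares, because the window was picked for this contrast. The 25 CpGs made up 6.04% of the 414 CpGs called lower in C-iPSCs by Fisher's exact test in the whole genome.

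Between 4F-iPSCs and mESCs, Fisher's exact test called 0 of 38 CpGs of the window, where 14.3% of all compared CpGs were called higher in 4F-iPSCs and 0.0333% lower. All 38 had a higher level in 4F-iPSCs, 23 of them with an unadjusted p under 0.05, which 35.9% of all compared CpGs had in that direction. The quasi-binomial model called 0 of 38, where 13.1% of all CpGs were called higher and 0.025% lower. It had 16 of 38 higher at an unadjusted p under 0.05, against 31.7% of all CpGs. These counts are a description, because the window was picked on the same levels. Differences stayed under 33.3 percentage points, with a maximum of 28.9 at position 13090934. Without mESC replicate 1, 1 CpG of the window was called higher in 4F-iPSCs.

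Between 4F-iPSCs and C-iPSCs, Fisher's exact test called 37 of 38 CpGs of the window (97.4%) higher in 4F-iPSCs, where 1.35% of all compared CpGs were called higher and 0.0285% lower. The quasi-binomial model called 36 of 38, where it called 0.614% of all CpGs higher and 0.0142% lower. As for the mESCs, the window was picked with this difference known.

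Over all 1106981 compared CpGs, the median level was 7.69% in mESCs, 12.1% in 4F-iPSCs, and 9.30% in C-iPSCs. In the window, the median over CpGs was 44.7%, 56.0%, and 5.52% in the same order. The median difference between C-iPSCs and mESCs was 0.952 percentage points over all compared CpGs and -36.1 percentage points in the window. For 4F-iPSCs and mESCs, it was 2.33 percentage points over all compared CpGs and 12.7 percentage points in the window. Of all compared CpGs, 23.0% were lower in C-iPSCs than in mESCs, so the window went in the less frequent direction in that comparison. In 4F-iPSCs, it went in the more frequent direction, with 68.4% of all compared CpGs higher than in mESCs.

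Within the window, the exon 1 part (25 CpGs) and the intron 1 part (13 CpGs) had nearly the same levels. The exon 1 part had mean levels of 41.6% ± 0.472 in mESCs, 54.9% ± 4.04 in 4F-iPSCs, and 7.76% ± 3.56 in C-iPSCs (SD, n = 2 libraries each). The intron 1 part had 42.5% ± 4.27, 56.1% ± 6.04, and 6.84% ± 2.86 in the same order. The parts differed by less than the spread between replicates in each cell type, apart from mESCs, where the difference was above the SD of the exon 1 part and below that of the intron 1 part.

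Single CpGs of the window varied more than its parts. Over the 38 CpGs, levels ranged from 21.6% to 61.7% in mESCs, from 36.7% to 70.9% in 4F-iPSCs, and from 0% to 22.5% in C-iPSCs. The median depth per CpG, summed over replicates, was 186.5 reads in mESCs, 265 in 4F-iPSCs, and 146.5 in C-iPSCs. Among mESC values, the highest was at 13090887, with 61.7% of 180 reads (54.4 to 68.5%), and the lowest were at 13091000 and 13091003, each with 21.6% of 74 reads (13.8 to 32.3%). The CpG at 13091000 was also the lowest in 4F-iPSCs, with 36.7% of 150 reads (29.4 to 44.6%). The highest CpG in both iPSC types was at 13090980, with 70.9% of 172 reads in 4F-iPSCs (63.7 to 77.2%) and 22.5% of 80 reads in C-iPSCs (14.7 to 32.8%). In C-iPSCs, 4 CpGs had no methylated read, the first of them at 13090986 with 154 reads. A count of 0 there allows a level of up to 1.95%, taken as 3 reads of the total, and the upper Wilson limit is 2.43%. At that position, the level was 34.7% in mESCs and 43.9% in 4F-iPSCs.

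The profile along the window was similar between replicates and between mESCs and 4F-iPSCs. Over the 38 CpGs, Pearson's r between replicates was 0.758 in mESCs, 0.846 in 4F-iPSCs, and 0.896 in C-iPSCs. Between cell types, it was 0.846 for mESCs and 4F-iPSCs, 0.469 for mESCs and C-iPSCs, and 0.555 for C-iPSCs and 4F-iPSCs. These values run across neighboring CpGs, which share reads, fragments, and base composition and are not independent. Replicates also differed in height. Replicate 2 was above replicate 1 at 31 of 38 CpGs in C-iPSCs and at 29 of 38 in 4F-iPSCs, and replicate 1 was above replicate 2 at 23 of 38 in mESCs.

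MspI cuts the window into fragments, of which 5 held inner CpGs that share reads. In the fragment of 74 bp that begins at -19 bp, the mean level of the inner CpGs was 44.4% in mESCs, 53.5% in 4F-iPSCs, and 8.61% in C-iPSCs. In the fragment of 93 bp at 55 bp, it was 45.3%, 60.0%, and 5.89%, and in the fragment of 71 bp at 208 bp, it was 44.3%, 58.4%, and 4.40%. In 4F-iPSCs, these 3 fragments had 53.8%, 53.1%, and 53.6% in replicate 1 and 53.3%, 66.1%, and 63.2% in replicate 2, so they were apart only in replicate 2. The fragment of 33 bp at 148 bp was lower in every cell type, with 26.8% in mESCs, 39.5% in 4F-iPSCs, and 0% in C-iPSCs, and no CpG inside it had more than 19 reads in mESC replicate 1. The last fragment, of 77 bp at 279 bp, had 33.9% in mESCs, 43.9% in 4F-iPSCs, and 2.82% in C-iPSCs. All 5 fragments thus had 4F-iPSCs highest and C-iPSCs lowest.

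CpGs in CCGG sites had a higher mean level than the other CpGs of the window in each library except mESC replicate 2. The 6 CpGs in CCGG sites had mean levels of 45.8% ± 7.85 in mESCs, 60.8% ± 8.33 in 4F-iPSCs, and 18.0% ± 9.99 in C-iPSCs (SD, n = 2 libraries each). The 32 other CpGs had 41.2% ± 0.634, 54.3% ± 4.05, and 5.46% ± 2.07 in the same order. In C-iPSCs, the CCGG CpGs were at 11% in replicate 1 and 25.1% in replicate 2, and the other CpGs were at 4.00% and 6.92%. In mESCs, the CCGG CpGs were at 51.3% in replicate 1 and 40.2% in replicate 2, and the other CpGs at 41.6% and 40.8%. CpGs in CCGG sites were also higher at promoters of chromosome 10 (CpGs within 500 bp of an annotated start). There, 4801 CpGs in CCGG sites had means from 14.4% to 24.9% over the 6 libraries, and 20081 other CpGs had means from 1.33% to 2.65%. The part of this contrast in the levels of the window was measured by leaving those CpGs out, and both the order of the cell types and the absence of overlap between their libraries were the same among the 32 other CpGs.

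**Figure D2:**
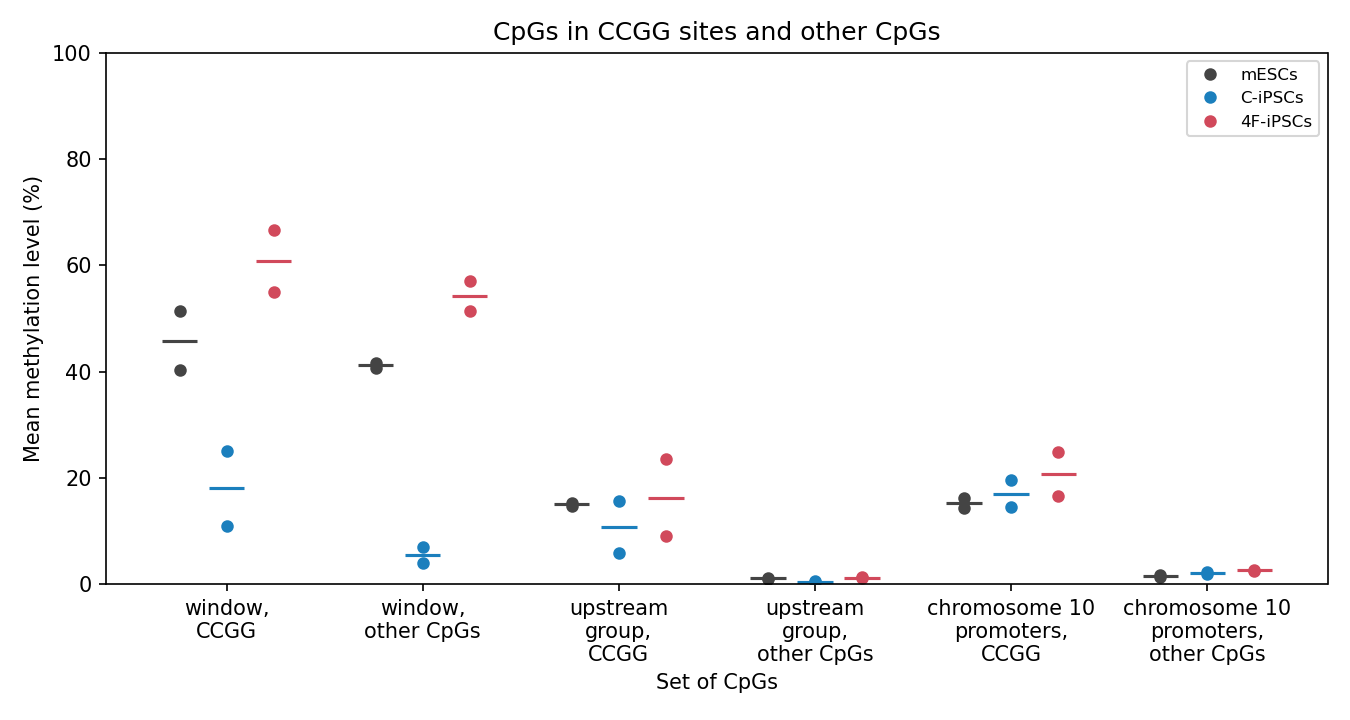
Mean methylation level (%) of CpGs in CCGG sites and of other CpGs in the Plagl1 window, the upstream group of Plagl1, and promoters of chromosome 10, with a point for each library and a bar for the mean of the 2 libraries of a cell type. In each set, CCGG CpGs have the higher mean level in each cell type, although not in mESC replicate 2 in the window.

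The letters TGCCGC, a motif known from sites bound by the factor ZFP57 at imprinted regions, were searched on both strands (GCGGCA on the other). The window held 2 matches, both in the intron 1 sequence shown, at 232 and 250 bp from the start. The 300 bases around the RefSeq start of Plagl1 held 1 match, and the upstream group held 0. Of 32851 RefSeq promoters of 300 bases, 3813 (11.6%) held the letters, so a match is not rare, and it is a description of the sequence with nothing drawn from it about the factor.

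Each match in the window held a CpG in its middle and was followed by a CpG that begins at its last base. At the match at 232 bp, the inner CpG had a level of 49.8% of 259 reads in mESCs, 61.5% of 462 in 4F-iPSCs, and 5.36% of 336 in C-iPSCs. The CpG at its last base had 32.2% of 261 reads in mESCs, 55.7% of 463 in 4F-iPSCs, and 3.56% of 337 in C-iPSCs. At the match at 250 bp, the inner CpG had 53.9% in mESCs, 62.5% in 4F-iPSCs, and 4.45% in C-iPSCs, and the CpG at the last base had 37.2%, 55.4%, and 3.26%. On summed reads, the inner CpG was the higher of the pair at both matches in each cell type, but in C-iPSC replicate 1 the match at 250 bp had 2.89% at the inner CpG and 4.05% at the last base. In mESCs, the inner CpG of the match at 232 bp had 53.1% and 45.7% in replicates 1 and 2, against 31.9% and 32.5% at its last base, so both replicates had the difference there. These CpGs were singled out after their values were seen. A similar dip in mESCs lay at 102 bp, at position 13090934, outside any match, with 23.1% in replicate 1 and 22.8% in replicate 2, against 51.9% of 289 reads in 4F-iPSCs.

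Because the window was chosen on levels in these libraries, its edges are not independent of the levels compared across them. The first CpG in the window, at -8 bp, had 43.3% in mESCs, 50.2% in 4F-iPSCs, and 7.19% in C-iPSCs. Just before it, the nearest compared CpG, at -19 bp and in a CCGG site, had 40% of 105 reads in mESCs, 50% of 106 in 4F-iPSCs, and 17.6% of 68 in C-iPSCs. Across this boundary, levels were close in mESCs and 4F-iPSCs, while the CpG outside was higher in C-iPSCs. The CpG at -8 bp is not in a CCGG site, so the boundary and the CCGG contrast cannot be told apart there. In C-iPSCs, CpGs of the window had 18.0% in CCGG sites and 5.46% outside them. The last CpG in the window, at 356 bp, had 32.1% in mESCs, 47.5% in 4F-iPSCs, and 11% in C-iPSCs. After it, the next compared CpG was 17597 bp from the start and had 4.10% in mESCs, 12.3% in 4F-iPSCs, and 13.1% in C-iPSCs, so the downstream end of the intermediate region was not covered. At the read minimum, 4 members had 10 reads in C-iPSCs, and the one with the fewest reads in all, at 13090652, had 19, 13, and 10 reads in mESCs, 4F-iPSCs, and C-iPSCs and levels of 31.6%, 30.8%, and 10%. Of the CpGs left out, the one with the most reads, at 13060882, had 12, 13, and 5 reads and levels of 8.33%, 7.69%, and 20%.

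Outside the window, the mean level over the 36 other CpGs was 12.1% and 11% in mESC replicates 1 and 2. It was 8.70% and 10.0% in the C-iPSC replicates and 12.7% and 15.1% in the 4F-iPSC replicates. Libraries of different cell types were not interspersed but lay close together, with means of 11.5% ± 0.726 in mESCs, 13.9% ± 1.71 in 4F-iPSCs, and 9.35% ± 0.919 in C-iPSCs (SD, n = 2 libraries each). The difference between C-iPSCs and mESCs was -2.19 percentage points (two-sided exact permutation test, p = 0.333). Between 4F-iPSCs and mESCs it was 2.34 percentage points (exact permutation test, p = 0.333), and between 4F-iPSCs and C-iPSCs 4.54 percentage points (exact permutation test, p = 0.333). With 2 libraries against 2, 0.333 is the smallest p that this test can give. The difference between C-iPSCs and mESCs changed its sign under several choices of reads and CpGs. It was 1.01 percentage points over the 31 CpGs more than 500 bp from the start. Over the 5 CpGs at the edge of the window, which had a median of 10 reads in C-iPSCs, it was -21.9 percentage points. The negative mean over the 36 thus rested on CpGs next to the window. Leaving out C-iPSC replicate 1 gave 1.94 percentage points over the 26 CpGs that still met the read minimum and -1.54 percentage points over all 36. With the read minimum applied again, leaving out 1 library gave 1.63 to 5.54 percentage points for 4F-iPSCs minus mESCs. For 4F-iPSCs minus C-iPSCs, the range was 1.35 to 5.40 percentage points. Without CpGs in CCGG sites, 4F-iPSCs minus mESCs gave -0.326 percentage points, and C-iPSCs minus mESCs kept its sign (-3.86 percentage points).

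Fisher's exact test called 0 of the 36 other CpGs in each of the 3 comparisons, and so did the quasi-binomial model among the 35 or 36 CpGs that it could test. Over all compared CpGs, Fisher's exact test called 2.9% higher in C-iPSCs and 14.3% higher in 4F-iPSCs, each against mESCs, and 1.35% higher in 4F-iPSCs against C-iPSCs. Without 4F-iPSC replicate 1, over the 26 CpGs that still met the read minimum, 1 CpG was called higher in 4F-iPSCs than in mESCs and 1 higher than in C-iPSCs. Over the 36 CpGs, the median difference was small, with 0 percentage points between C-iPSCs and mESCs and 0.449 percentage points between 4F-iPSCs and mESCs. Between 4F-iPSCs and C-iPSCs, it was 1.52 percentage points, against 1.39 percentage points over all compared CpGs.

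Counts at an unadjusted p under 0.05, whatever the size of the difference, are set beside the share of all compared CpGs under the same rule. By Fisher's exact test, 3 of the 36 were higher in C-iPSCs than in mESCs (23.7% of all) and 3 lower (0.765% of all). In 4F-iPSCs, 3 were higher than in mESCs (35.9% of all) and 0 lower (0.412%), and 3 were higher than in C-iPSCs (22.2%) and 0 lower (0.433%). Higher CpGs were thus a smaller share of the 36 than of all compared CpGs in each comparison. Lower CpGs were a larger share of the 36 than of all in C-iPSCs against mESCs, but not in the comparisons of 4F-iPSCs. Of these lower CpGs, 13090813 lies at -19 bp, just outside the window, which was chosen on levels in these libraries. Those at 13061072 and 13061088, in the upstream group, were low in both cell types, with 5.49% and 3.03% in mESCs and 0% in C-iPSCs. By the quasi-binomial model, 1 was higher and 2 lower in C-iPSCs than in mESCs (14.8% and 0.165% of all). In 4F-iPSCs, 2 were higher and 0 lower than in mESCs (31.7% and 0.204%), and 1 was higher and 0 lower than in C-iPSCs (11.3% and 0.138%).

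**Figure D3:**
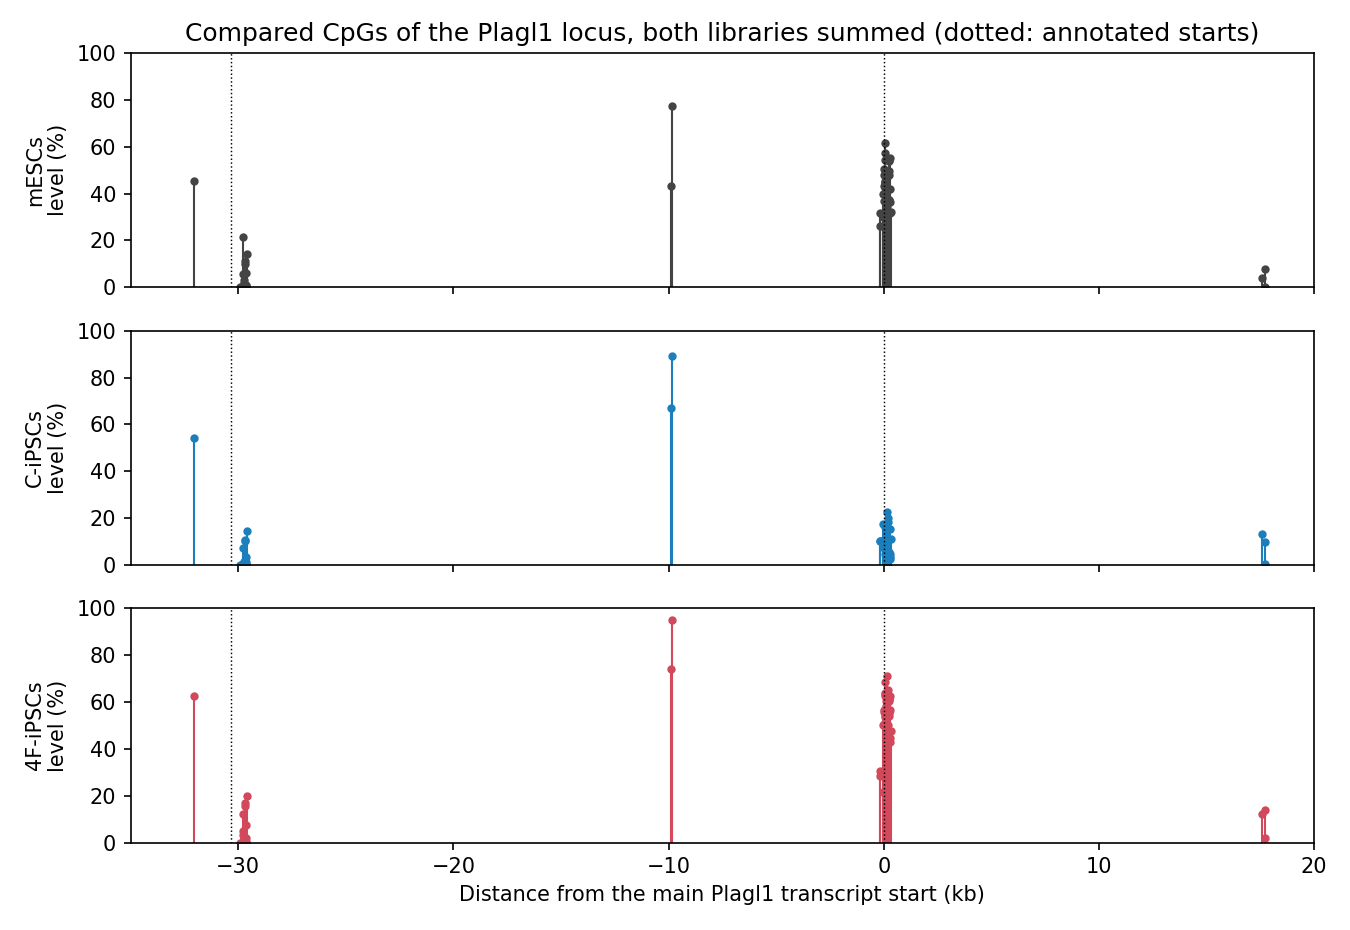
Methylation level (%) of the 74 compared CpGs of the Plagl1 locus, with both libraries of a cell type summed, against the distance (kb) from the main transcript start; dotted lines mark the main and the most upstream annotated start. The group of CpGs at the main start is intermediate in mESCs and 4F-iPSCs and low in C-iPSCs, and the group after the upstream start is low in each cell type.

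The upstream group was low in all cell types. Its 25 CpGs had mean levels of 3.31% and 3.26% in mESC replicates 1 and 2, 1.22% and 3.05% in C-iPSC replicates, and 2.55% and 4.69% in 4F-iPSC replicates. All 25 had a level under 30% in each cell type. The 4 CpGs in CCGG sites carried most of this level, with means of 15.0% ± 0.389 in mESCs, 16.3% ± 10.2 in 4F-iPSCs, and 10.7% ± 6.90 in C-iPSCs. Their libraries overlapped between cell types, with 9.09% and 23.5% in the 4F-iPSC replicates and 5.86% and 15.6% in the C-iPSC replicates. Outside CCGG sites, the 21 remaining CpGs had 1.06% ± 0.113, 1.21% ± 0.138, and 0.434% ± 0.142 in the same order (SD, n = 2 libraries each). In mESCs and 4F-iPSCs, the upstream group thus lay far below the window, and in C-iPSCs both were low.

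The 5 CpGs at the edge of the window had levels between those of the window and the upstream group in mESCs and 4F-iPSCs. Their mean levels were 31.2% ± 0.926 in mESCs, 30.0% ± 2.17 in 4F-iPSCs, and 9.25% ± 7.93 in C-iPSCs (SD, n = 2 libraries each). C-iPSC replicate 1 had 14.9% and replicate 2 had 3.64%. The depth was low, with a median of 19 reads in mESCs, 14 in 4F-iPSCs, and 10 in C-iPSCs, so the levels of these CpGs are imprecise. At the CpG with more reads, at -19 bp, C-iPSCs minus mESCs gave -22.4 percentage points (Fisher's exact test, unadjusted p = 0.00236). For 4F-iPSCs minus C-iPSCs, the same CpG gave 32.4 percentage points (Fisher's exact test, unadjusted p = 1.35e-05), just under the difference required for a call.

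The 6 scattered CpGs had the opposite order of C-iPSCs and mESCs. Their mean levels were 29.6% ± 3.45 in mESCs, 43.3% ± 2.16 in 4F-iPSCs, and 38.9% ± 5.91 in C-iPSCs (SD, n = 2 libraries each). As 5 of the 6 lay in CCGG sites and the other, at 13108546, had 0% in mESCs and 0.450% in C-iPSCs, nearly all of this difference came from CpGs in CCGG sites. The largest difference among the 36 CpGs against mESCs lay here, at 13080932, an intronic CpG in a CCGG site at -9900 bp. It had 42.7% and 44.7% in the mESC replicates, 60.2% and 73.1% in the C-iPSC replicates, and 70.4% and 76.9% in the 4F-iPSC replicates. It was 23.7 percentage points higher in C-iPSCs (Fisher's exact test, unadjusted p = 7.04e-06) and 30.6 percentage points higher in 4F-iPSCs (Fisher's exact test, unadjusted p = 1.17e-09) than in mESCs. Its neighbor at 13080999 was the most methylated CpG of the locus, with 77.4% in mESCs, 94.9% in 4F-iPSCs, and 89.1% in C-iPSCs. Both CpGs were thus higher in both iPSC types than in mESCs, whereas the window was lower in C-iPSCs.

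**Figure D4:**
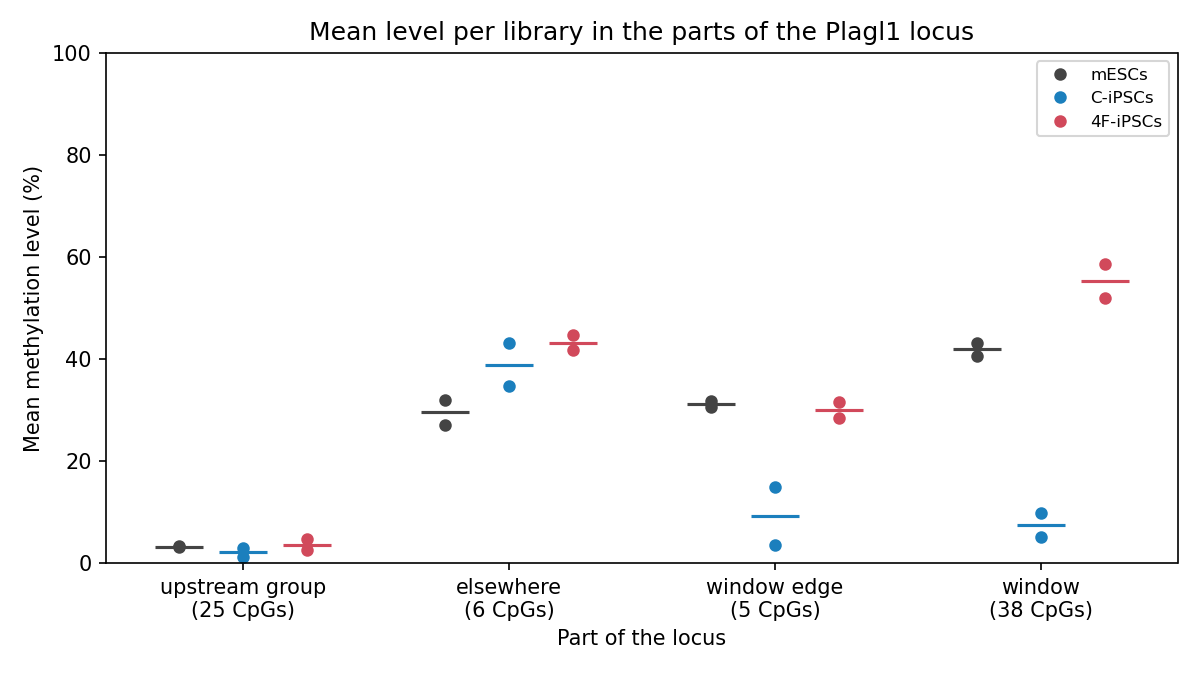
Mean methylation level (%) in the upstream group, the scattered CpGs (elsewhere), the edge of the window, and the window of the Plagl1 locus, with a point for each library and a bar for the mean of the 2 libraries of a cell type. The 3 cell types are separated most in the window, at 41.9%, 55.3%, and 7.45% in mESCs, 4F-iPSCs, and C-iPSCs.

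Set against the rest of the locus, the window was 30.4 percentage points higher in mESCs and 41.4 percentage points higher in 4F-iPSCs. In C-iPSCs, the window minus the other CpGs gave -1.90 percentage points. The mean of the other CpGs is raised by the 6 scattered ones. As medians over CpGs, the window had 5.52% and the other CpGs 1.14% in C-iPSCs, against 44.7% and 1.54% in mESCs and 56.0% and 2.24% in 4F-iPSCs.

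To place Plagl1 among genes of its kind, levels were computed for 12 genes whose promoters are maternally methylated imprinted regions, over CpGs within 500 bp of their starts. Of these, 9 had at least 5 compared CpGs, and Mest, Kcnq1ot1, and Impact did not. In 9 of 9, both C-iPSC libraries were below both mESC libraries, as in the Plagl1 window. In 8 of 9, both 4F-iPSC libraries were above both mESC libraries, and for Peg13 both were below. These counts stand without the share of all promoters under the same rule, so nothing is read from them. At single CpGs on summed reads, which is another measure, 68.4% of all compared CpGs were higher in 4F-iPSCs than in mESCs. By that measure, 23.0% were lower in C-iPSCs than in mESCs. Peg3, which encodes a zinc finger protein, had mean levels of 39.9% in mESCs, 60.1% in 4F-iPSCs, and 8.01% in C-iPSCs, close to those of Plagl1. Snrpn had 33.2%, 58.5%, and 4.32%, and the noncoding RNA gene Airn had 33.1%, 64.3%, and 3.44%. Peg10 had 25.3%, 60.2%, and 6.84%, Nap1l5 had 26.2%, 62.7%, and 6.75%, and Nnat had 21.7%, 51.8%, and 6.19%. The Plagl1 window had the highest mESC mean of these genes apart from Peg13, though it differed from Peg3 by less than the SD of Peg3 (4.86). Unlike the regions of the other genes, the window was chosen on levels in these libraries. Within 500 bp of its main start (43 CpGs), Plagl1 had 40.7% in mESCs, 52.4% in 4F-iPSCs, and 7.66% in C-iPSCs. Peg13 had 82.6% in mESCs, 65.1% in 4F-iPSCs, and 53.3% in C-iPSCs. Zrsr1 had 21.4%, 56.6%, and 4.64%, and Mcts2 had the lowest 4F-iPSC mean, with 8.44%, 25.2%, and 4.73%.

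**Figure D5:**
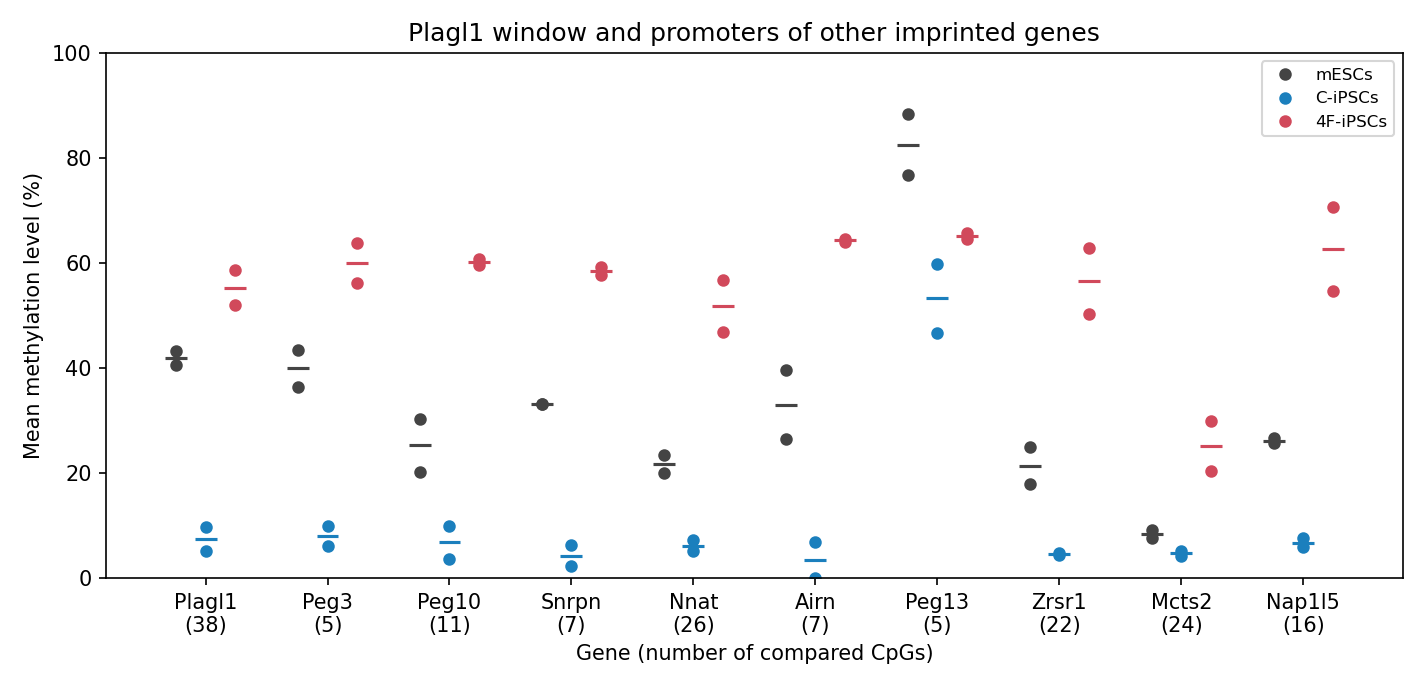
Mean methylation level (%) of the Plagl1 window and of the promoters of 9 other maternally methylated imprinted genes, with a point for each library, a bar for the mean of the 2 libraries of a cell type, and the number of compared CpGs below each gene. C-iPSC libraries lie below mESC libraries at each gene, and 4F-iPSC libraries lie above them at each gene but Peg13.

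The promoters most like the Plagl1 window were sought among 26790 transcript starts of 16333 genes with at least 5 compared CpGs, by the root mean square of the differences between the 6 library means. The closest were Peg3, Usp29, and Gm27675, which share the same 5 CpGs, at 4.06 percentage points. Meg3, an imprinted noncoding RNA gene, followed at 4.49 percentage points over 9 CpGs, with 36.4% in mESCs, 60.0% in 4F-iPSCs, and 6.73% in C-iPSCs. Gm38393 and Snurf, which share the same 9 CpGs, were tied for the next place at 5.72 percentage points. Peg3, Meg3, and Snurf are imprinted genes. The likeness in levels is what these promoters were selected on.

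Promoters of pluripotency genes, which are unmethylated in pluripotent cells and methylated in fibroblasts, were looked at because all 3 labelled cell types are pluripotent. They cannot tell these cell types apart. Nanog, Dppa3, and Tdgf1 had 0 compared CpGs within 500 bp of their starts. Pou5f1, with 3 compared CpGs, had mean levels of 9.09% and 21.8% in the mESC replicates, 5.00% and 6.67% in the C-iPSC replicates, and 10.3% and 12.5% in the 4F-iPSC replicates. Zfp42, with 2 compared CpGs, had 0% and 7.14% in the mESC replicates, 7.89% and 2.94% in the C-iPSC replicates, and 7.54% and 18.1% in the 4F-iPSC replicates. These promoters were low in all 6 libraries, over only 5 CpGs.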

How the data were processed

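DNA methylation was measured by RRBS. The authors aligned read pairs to mm10 with BSMAP 2.90, as the submitters' processing notes name it, called cytosines with MOABS, and deposited for each CpG a count of all reads and a count of methylated reads, without normalization. The methylated fraction deposited by the authors was used only to check the counts and differed from their ratio by at most 0.0005. Read counts summed over CpGs, with a read counted at each CpG that it covers, were between 53694199 and 96534037 per library. Medians were 31 to 54 reads per CpG.

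Levels are methylated reads as a share of reads, and library means use every member read in that library. Fisher's exact tests were run on all 1106981 compared CpGs and exact permutation tests on library means, with Python 3.11.15, numpy 2.4.6, pandas 2.3.3, scipy 1.17.1, numba 0.67.0, and matplotlib 3.10.9. The quasi-binomial model used squeezeVar of limma 3.58.1 in R 4.3.3.

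Named CpGs are the first, last, highest, and lowest of the window and the nearest outside it. As no CpG outside was called, those with the largest differences are named, and these and any further CpG named, such as those at the motif or with the fewest reads, were chosen after their values were seen. Other promoters named are a list of maternally methylated regions and the 5 most alike genes, with a tie. Members and lists were chosen with earlier results of these data known. Alternatives changed the read minimum, strand, window, difference threshold, test, pooling, and libraries, and, chosen after seeing the data, left out CpGs in CCGG sites, kept all members without a library, and crossed the replicate numbers.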

Additional observations from a re-analysis of the deposited data

Results flagged for a closer look

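In the Plagl1 window, every library of C-iPSCs was below both mESC libraries and every library of 4F-iPSCs was above them. The difference was -34.5 percentage points for C-iPSCs minus mESCs and 13.4 percentage points for 4F-iPSCs minus mESCs, so the iPSC types moved in opposite directions from the same mESC libraries. For the window as a whole, the difference between these effects was not tested, and the calls at its single CpGs are a description, because the window was chosen on these levels.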

How the results depend on the processing

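Of 179 alternatives over 12 results, 161 kept the direction and the side of the threshold or stayed within the limits set for a count or a level, 11 moved, and 7 changed sign. For each change given, the cause was not tested. Some of the 161 could not have come out otherwise, so their number is not a measure of robustness. In the window, at least 20 summed reads or at least 10 reads in each library kept the same 38 CpGs. Taking the replicate number as a block leaves a mean difference unchanged. For window levels, leaving out a library gave the level of the remaining library, which restates the spread between replicates.

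In the window, with a difference of more than 0.5 required, calls fell to 17 for 4F-iPSCs against C-iPSCs and 1 for C-iPSCs against mESCs. Between 4F-iPSCs and mESCs, 1 CpG was called on the minus strand, with a difference of more than 0.25, and without mESC replicate 1. With pooled reads, the mESC level was 43.7%. Leaving out each library in turn gave 21 to 26 calls for C-iPSCs against mESCs, 36 to 38 for 4F-iPSCs against C-iPSCs, and 0 to 1 for 4F-iPSCs against mESCs, with levels of 40.7 to 43.2% in mESCs, 5.10 to 9.79% in C-iPSCs, and 52.0 to 58.6% in 4F-iPSCs.

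Among the other CpGs, 1 was called with a difference of more than 0.25 in both comparisons of 4F-iPSCs (against mESCs, against C-iPSCs), 1 on the plus strand in the latter, and 1 in each without 4F-iPSC replicate 1 (26 CpGs). Leaving out libraries gave 0 to 1 calls in both comparisons of 4F-iPSCs and 0 for C-iPSCs against mESCs. The mean difference between C-iPSCs and mESCs was 0.137 percentage points with at least 20 summed reads or at least 10 reads in each library, 0.395 on the minus strand, 1.01 with a window of 500 bp to each side of the start, and 0.889 with pooled reads. With the read minimum applied again, which kept 26 to 36 CpGs, leaving out each library gave -1.68 to 1.94, the latter without C-iPSC replicate 1 (26 CpGs). It gave 1.63 to 5.54 for 4F-iPSCs minus mESCs and 1.35 to 5.40 for 4F-iPSCs minus C-iPSCs. On all 36 CpGs, chosen after seeing the data, it gave -2.84 to -1.54, 1.14 to 3.55, and 3.33 to 5.75 in the same order. No sign could change there, because library means over the 36 did not overlap between cell types. Without CpGs in CCGG sites, chosen after seeing the data, 4F-iPSCs minus mESCs gave -0.326.

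Replicate numbers mark no shared origin in the labels, and same-numbered libraries deviated with r of 0.0410, -0.226, and 0.118 over 957681 CpGs. With the replicate number as a block, calls were 0, 0, and 0 among the other CpGs and 25, 0, and 37 in the window, and the mean differences of -2.19, 2.34, and 4.54 had an exact sign-flip p of 0.5, the smallest possible. With the crossed pairing, chosen after seeing the data, 0 CpGs of the window and 0 others were called for 4F-iPSCs against mESCs.

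With 2 libraries a cell type, the exact permutation test on library means cannot give a p under 0.333. Depth limited 10 of the 36 other CpGs, which had under 20 reads in a cell type.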
